A study of Homo sapiens with 6 samples.

Results

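Serpins are a superfamily of proteins that mostly trap serine proteases by offering a bait loop and then changing shape around the enzyme. A few members lost the inhibitory function and act as chaperones, hormone carriers or structural proteins. In plasminogen activation, urokinase (PLAU) and tissue-type plasminogen activator (PLAT) cleave the zymogen plasminogen (PLG) to plasmin, which degrades fibrin and pericellular matrix, and the urokinase receptor (PLAUR) holds urokinase on the cell surface. Serpins that inhibit the activators include SERPINE2, SERPINB2, SERPINA5 and SERPINI1, and SERPINF2 inhibits plasmin itself. In tumours of epithelial origin this system is known for its part in invasion, and in brain metastasis for the control of plasmin by serpins of the tumour cells.

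The genes described here are the protein-coding genes of the deposited FPKM table whose symbol is that of a serpin of clades A to I, together with PLAU, PLAUR, PLAT and PLG. There were 38 such genes (34 serpins) among 19951 protein-coding genes and 58735 genes in all. RNA-seq was performed in 2 groups of 3 libraries from PC9-BrM3, a line that had been derived from PC9 lung adenocarcinoma cells through repeated cycles of injection into mice and recovery of cells from their brain metastases. The BrM3-shAKR1B10 cells carried, in a lentiviral vector that also expresses luciferase, an shRNA against the aldo-keto reductase AKR1B10 (vector 1, by the figure legends) and the BrM3-shNC cells a negative control shRNA, and the labels give the genotypes as AKR1B10 knockdown and WT. Both groups were in routine culture in RPMI1640 with serum. A single shRNA vector was sequenced, so its other effects cannot be told apart from those of AKR1B10 loss. The labels do not say that the libraries came from separate cultures, and p-values then measure only the spread between these libraries.

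The targeted gene AKR1B10 was at 108.3, 107.2 and 110.2 FPKM in BrM3-shAKR1B10 and at 799, 775 and 772 FPKM in BrM3-shNC, which leaves 13.9% of the control level. Gene-assigned reads per library ranged from 16964504 to 18709028. All 6 epithelial markers examined were present, with summed levels between 2986 and 3348 FPKM over the 6 libraries. The lung markers NKX2-1, SFTPB and SFTPC were at or near 0, with at most 14 reads in any library, and NAPSA had at most 43 reads. The other marker of this list, MUC1, was between 5.11 and 5.64 FPKM with AKR1B10 silenced and between 3.30 and 3.71 FPKM in the controls. Of the liver markers ALB, APOA1, TTR and FGB, none had more than 1 read in any library. The fibroblast markers COL1A2, DCN and LUM had 0 reads, whereas COL1A1 was between 1.15 and 1.33 FPKM with AKR1B10 silenced and between 1.96 and 2.02 FPKM in the controls. Summed endothelial markers lay between 2.10 and 2.37 FPKM in the silenced cells and between 1.52 and 1.79 FPKM in the controls, mostly CDH5, with KDR at 0 (3 of 4 markers over 3 reads). PECAM1 of the same list was between 0.233 and 0.293 FPKM in the silenced cells and between 0.388 and 0.513 FPKM in the controls. Summed leukocyte markers reached at most 1.39 FPKM and neural markers at most 0.516 FPKM in any library. The part of these marker levels in the results was not tested.

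Of the 38 genes, 14 had a mean of at least 1 FPKM over the 6 libraries and were tested, and each of the 14 also reached 1 FPKM in both groups. The other 24 did not pass this filter. No member of clade A, the secreted serpins made largely by liver, passed the filter (0 of 10), against 5 of 13 in clade B, the mainly intracellular serpins. Clades D, E, F and H contributed members such as SERPIND1, SERPINE2, SERPINF1, SERPINF2 and SERPINH1, and clades C, G and I none. Among the 4 genes that are not serpins, PLAU, PLAUR and PLAT passed and PLG had 0 reads in every library.

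FPKM divides reads by the deposited gene length, such as 2950 bases for PLAU, 8891 for SERPINE2 and 13201 for SERPINB6. Whether these lengths match the transcripts expressed was not tested, so the order of levels between genes holds for these lengths only. In BrM3-shNC the highest level was that of SERPINE2 (47.1 ± 1.70 FPKM, SD, n = 3), followed by SERPINH1 (40.6 ± 2.04), SERPINB5 (29.7 ± 2.22), PLAU (28.4 ± 0.899) and SERPINB1 (24.2 ± 0.713). The values of SERPINB5 and PLAU overlapped, and the other neighbours in this order did not. SERPINB6 was at 7.24 ± 0.244 FPKM. SERPIND1, PLAUR, SERPINB7 and SERPINF2 lay between 4.09 and 5.23 FPKM, with overlapping values between each neighbour and the next. PLAT (3.01 FPKM), SERPINB8 (2.32 FPKM) and SERPINF1 (1.26 FPKM) closed the list. In BrM3-shAKR1B10 the order of levels changed at the top: PLAU (39.2 ± 0.859 FPKM, SD, n = 3) and SERPINE2 (38.3 ± 0.564 FPKM) led with overlapping values, and SERPINH1 (23.5 ± 0.996 FPKM) ranked 4 in place of 2.

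The groups were compared by limma, run on log2(FPKM + 0.1) of the 13150 genes that averaged 1 FPKM or more. Called genes had both an adjusted p (Benjamini-Hochberg, all genes tested) under 0.05 and a log2 fold change beyond 0.5 in either direction. SERPINH1 and PLAUR fell and SERPINB7 rose in BrM3-shAKR1B10, so that 3 of 14 members (21.4%) were called, beside 13.3% of all genes tested (7.45% lower and 5.83% higher). Over all genes, 980 were lower and 766 higher, and with TPM 873 were lower and 902 higher. A further 6 members passed the adjusted p but stayed within the fold threshold, which made 9 of 14 (64.3%) beside 42.5% of all genes. These were 6 lower and 3 higher, beside 23.1% and 19.4% of all genes. The values of the groups did not overlap for 10 of 14 members (71.4%), beside 54.7% of all genes, with 7 lower (29.2% of all genes) and 3 higher (25.5%). The median log2 fold change was -0.14 over the 14 members and -0.01 over all genes tested. With 14 genes these shares are a description and nothing particular to the family is read from them. In bulk RNA, fewer cells expressing a gene and less RNA per cell cannot be told apart.

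The level of the urokinase activator was higher in BrM3-shAKR1B10. PLAU (ENSG00000122861, chr10:73909177-73917497, plus strand, GRCh38) was at 40.2, 38.6 and 38.9 FPKM in BrM3-shAKR1B10 and at 29.4, 28.3 and 27.6 FPKM in BrM3-shNC. All 3 silenced libraries lay above all 3 control libraries, at 138.0% of the control mean. PLAU had a log2 fold change of 0.46 (SE 0.0362, adjusted p = 0.00016 from limma), just inside the threshold of 0.5, and it passed that threshold with TPM (0.50) and with quantile normalization (0.53). At most 24 reads per library were assigned to C10orf55, which overlaps PLAU on the opposite strand, beside 1412 to 2095 reads on PLAU. With 3 libraries per group, the exact two-sided permutation test gave p = 0.10 for each of the 10 members whose groups did not overlap, the smallest it can give.

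The receptor went the other way. PLAUR (ENSG00000011422, chr19:43646095-43670547, minus strand) was at 3.47, 2.92 and 3.56 FPKM in BrM3-shAKR1B10 and at 4.77, 5.63 and 4.32 FPKM in BrM3-shNC. Every silenced library lay below every control library, although the 3 control values spread widely. The log2 fold change was -0.55 (SE 0.117, adjusted p = 0.0102 from limma, 0.040 with the replicate number as a block), with a 95% interval from -0.83 to -0.27. This call rested on the fold threshold. PLAUR no longer passed without BrM3-shAKR1B10 replicate 2 (log2 fold change -0.46, adjusted p = 0.030 from limma), without BrM3-shNC replicate 2 (-0.45, adjusted p = 0.024) or with a pseudocount of 1 (-0.45, adjusted p = 0.011).

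PLAT, the activator best known from the vessel wall and brain, was at 3.38, 3.11 and 3.22 FPKM in BrM3-shAKR1B10 and at 2.90, 3.13 and 3.01 FPKM in BrM3-shNC. The groups overlapped. Its log2 fold change was 0.10, with a 95% interval from -0.05 to 0.25 (adjusted p = 0.25 from limma). PLG had 0 reads in all 6 libraries, so the substrate of both activators was not detectable as a transcript of these cells at this depth.

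SERPINE2, protease nexin 1, inhibits thrombin, urokinase and plasmin and was the highest serpin in both groups. It was at 38.5, 37.6 and 38.7 FPKM in BrM3-shAKR1B10 and at 48.9, 45.5 and 46.8 FPKM in BrM3-shNC. The groups did not overlap, and the silenced mean was 81.3% of the control mean. The log2 fold change was -0.30 (SE 0.0361, adjusted p = 0.00099 from limma), within the fold threshold.

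SERPINF2, the plasmin inhibitor alpha-2-antiplasmin, was at 2.87, 3.56 and 3.65 FPKM in BrM3-shAKR1B10 and at 4.13, 4.03 and 4.11 FPKM in BrM3-shNC. All silenced values lay below the control values, but the low value of BrM3-shAKR1B10 replicate 1 widened the spread. The log2 fold change was -0.28 (95% interval -0.51 to -0.05, adjusted p = 0.053 from limma) and did not pass. Without that library it was -0.18 (adjusted p = 0.062 from limma), and without BrM3-shAKR1B10 replicate 3 it was -0.35 (adjusted p = 0.047). Of the other inhibitors of this system, SERPINB2 had 0 reads in every library and SERPINA5 (protein C inhibitor) at most 1 read. SERPINI1 (neuroserpin, the inhibitor of PLAT in neurons) lay below the filter and is described with the low genes.

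The levels can also be set against each other within a library. The size of such a ratio depends on the deposited gene lengths, and its fold between the groups does not. The level of PLAU was 1.02 ± 0.0194 times that of SERPINE2 with AKR1B10 silenced and 0.604 ± 0.0172 times in the controls (SD, n = 3 each), and these ratios did not overlap between the groups. Relative to PLAT, the level of PLAU was 12.1 ± 0.270 with AKR1B10 silenced and 9.44 ± 0.596 in the controls, also without overlap. The ratio of PLAU to its receptor PLAUR was 11.6, 13.2 and 10.9 in BrM3-shAKR1B10 and 6.16, 5.03 and 6.39 in BrM3-shNC, 2.03 times as high in the silenced cells. The ratios were chosen after the values were seen and describe transcripts, not protein or activity.

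Outside plasminogen activation, the member with the largest decrease was SERPINH1 (ENSG00000149257, chr11:75562056-75572783, plus strand). It encodes HSP47, a serpin of the endoplasmic reticulum that inhibits no protease and acts as a chaperone of procollagen. SERPINH1 was at 23.2, 22.6 and 24.6 FPKM in BrM3-shAKR1B10 and at 38.3, 41.9 and 41.7 FPKM in BrM3-shNC. The groups were far apart, with 57.8% of the control level left. The log2 fold change was -0.79 (SE 0.0503, adjusted p = 7.4e-05 from limma, 0.0013 with the replicate block) and ranged from -0.83 to -0.76 over the fits that dropped a library. The pseudogene SERPINH1P1, whose reads could be exchanged with those of SERPINH1, had at most 0.175 FPKM.

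Clade B held both the largest increase and several small decreases. SERPINB7 (ENSG00000166396, chr18:63752935-63805376, plus strand), an inhibitor best known from the epidermis, was at 9.31, 9.47 and 8.21 FPKM in BrM3-shAKR1B10 and at 5.46, 4.19 and 4.07 FPKM in BrM3-shNC. BrM3-shNC replicate 1 was the highest control library and still lay below all 3 silenced libraries. The log2 fold change was 0.97 (SE 0.119, adjusted p = 0.0010 from limma, 0.0031 with the block) and ranged from 0.89 to 1.10 over the fits that dropped a library. Between 187 and 451 reads per library lay on the gene.

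SERPINB5, or maspin, a non-inhibitory serpin of epithelial cells, was at 31.5, 30.7 and 31.0 FPKM in BrM3-shAKR1B10 and at 32.2, 28.0 and 28.9 FPKM in BrM3-shNC. The groups overlapped, and the log2 fold change was 0.07 with a 95% interval from -0.06 to 0.20 (adjusted p = 0.37 from limma). The value depended on single control libraries, at 0.13 without BrM3-shNC replicate 1 (adjusted p = 0.030 from limma) and 0.02 without BrM3-shNC replicate 2 (adjusted p = 0.76). SERPINB8, an inhibitor of furin, was at 2.06, 2.25 and 2.13 FPKM in BrM3-shAKR1B10 and at 2.20, 2.40 and 2.35 FPKM in BrM3-shNC, also overlapping (log2 fold change -0.10, 95% interval -0.29 to 0.08, adjusted p = 0.32 from limma).

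SERPINB1 and SERPINB6, intracellular serpins that protect cells from granule proteases such as elastase and cathepsin G, were both lower within the fold threshold. SERPINB6 was at 5.52, 5.58 and 5.66 FPKM in BrM3-shAKR1B10 and at 6.98, 7.30 and 7.45 FPKM in BrM3-shNC. It did not overlap between the groups and differed by -0.37 on the log2 scale (SE 0.0434, limma adjusted p = 0.00086). SERPINB1 was at 22.4, 22.1 and 20.2 FPKM in BrM3-shAKR1B10 and at 24.3, 24.9 and 23.5 FPKM in BrM3-shNC. Its groups did not overlap either, by a narrow margin, and the log2 fold change was -0.17 (adjusted p = 0.033 from limma, up to 0.099 when a library was left out).

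Of the remaining tested serpins, SERPIND1 (heparin cofactor II, an inhibitor of thrombin) was at 4.03, 3.95 and 4.64 FPKM in BrM3-shAKR1B10 and at 5.19, 4.91 and 5.60 FPKM in BrM3-shNC. The fitted log2 difference was -0.31 (adjusted p = 0.022 from limma, up to 0.069 when a library was left out). SERPIND1 lies wholly within PI4KA on the opposite strand, which averaged 11.4 FPKM with AKR1B10 silenced and 13.5 FPKM in the controls. Whether the counting used the strand is not given in the sources used here, so reads of the 2 genes cannot be told apart. SERPINF1 (pigment epithelium-derived factor, an inhibitor of angiogenesis without protease target) was at 1.53, 1.46 and 1.27 FPKM in BrM3-shAKR1B10 and at 1.12, 1.41 and 1.25 FPKM in BrM3-shNC. These values overlapped, with a log2 fold change of 0.16 and a wide 95% interval from -0.18 to 0.51 (adjusted p = 0.40 from limma). It lay between 0.09, without BrM3-shNC replicate 1, and 0.24, without BrM3-shNC replicate 2, over the fits that dropped a library.

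Promoter sequences were available from RefSeq (GRCh38.p14) for 30 of the 38 genes and for 10 of the 14 tested members. PLAT, SERPINF1 and SERPINF2 were not among them. The 250 bases before each annotated start were searched on both strands for 6 short motifs, and the windows below are shown because they hold, in the 3 called genes, either of the 2 motifs found in the fewest promoters. Capitals mark the motif.
SERPINH1: ccaactttccaGAAGTTTCtcgggacgggc
PLAUR: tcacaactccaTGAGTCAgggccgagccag
SERPINB7, upstream start: ggaagtcttggGAATTTTCcctgaaccttg
SERPINB7, middle start, far site: ctcctgaaatcTGATTCAcatacaaactga
SERPINB7, middle start, near site: gtgctgtgctcTGAGTCAtagggaagccat
SERPINB7, downstream start, far site: atgctaaaattTGATTCAttaaaaatatct
SERPINB7, downstream start, near site: tagggagtgtcTGAGTCAgaggctttatat
The SERPINH1 window (chr11:75562171-75562200, plus strand) holds the core of the heat shock element GAANNTTC, recognized by HSF1, starting 71 bases before the start. The window at the upstream start of SERPINB7 (chr18:63752995-63753024, plus strand) holds the same core 51 bases before the start. The other 5 windows hold the AP-1 motif TGANTCA, bound by FOS and JUN dimers. It starts 186 bases before the start of PLAUR (chr19:43670337-43670366, minus strand), 154 and 39 bases before the middle of 3 listed starts of SERPINB7 (chr18:63775253-63775282 and chr18:63775368-63775397, plus strand), and 206 and 45 bases before the downstream start (chr18:63777564-63777593 and chr18:63777725-63777754). By GENCODE 29, both windows at the downstream start of SERPINB7 and the far window at its middle start lie in introns, and the other 4 windows overlap an exon of some transcript of their gene. Both motifs read alike on either strand.

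The AP-1 motif was present at 5 of the 18 listed starts of tested members (27.8%), beside 6.57% of 35116 promoters of the same length. These starts belonged to SERPINB5, SERPINB7 (2 starts), SERPINB8 and PLAUR, of which PLAUR fell, SERPINB7 rose and the groups overlapped for the other 2. By gene, the AP-1 motif was in 4 of 10 tested members and in 9 of all 30 with a promoter, so members below the filter held it too. The heat shock core was at 2 of 18 starts, those of SERPINH1 and SERPINB7, beside 5.78% of promoters. The GC box GGGCGG was at 9 of 18 (42.6% of promoters), the SMAD half-site CAGAC at 9 of 18 (38.003%), TATAAA at 2 of 18 (10.7%) and the TEAD motif GGAATG at 0 of 18 (11.9%). Starts of the same gene can share sequence, and at the downstream start of SERPINB7 the SMAD half-site and the AP-1 motif overlap in 2 bases. A match is a description of these letters, not a bound site.

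Many serpins stand side by side in the genome, and the levels of neighbours differed widely. On chromosome 18, 10 clade B genes lie within 543 kb (chr18:63476761-64019779). SERPINB5 at the start, SERPINB7 in the middle and SERPINB8 at the end passed the filter, whereas the 7 genes between them had at most 2 reads in any library. SERPINB11, SERPINB2 and SERPINB10 among them had 0 reads throughout. SERPINB3 and SERPINB2, on either side of SERPINB7, were at or near 0 in both groups, and the values of SERPINB5 and SERPINB8 overlapped between the groups. SERPINB3 and SERPINB4, the squamous cell carcinoma antigens, are near-identical copies whose reads can be split in counting, and together they gave at most 2 reads per library.

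On chromosome 6, SERPINB1 and SERPINB6 were expressed, and SERPINB9, the granzyme B inhibitor between them, had at most 1 read in any library. The 9 clade A genes on chromosome 14, spread over 344 kb, included 7 with 0 reads in every library, among them SERPINA1 (alpha-1-antitrypsin). SERPINA3 (alpha-1-antichymotrypsin) and SERPINA5 in the same cluster had at most 1 read. On chromosome 17, SERPINF2 and SERPINF1 are neighbours on the same strand, with log2 fold changes of -0.28 and 0.16.

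Of the 24 members below the filter, 12 had 0 reads in all 6 libraries. They were PLG, SERPINA1, SERPINA4, SERPINA6, SERPINA7, SERPINA9, SERPINA10, SERPINA11, SERPINA12, SERPINB2, SERPINB10 and SERPINB11. At this depth a level of up to 3 reads, between 0.0256 and 0.120 FPKM depending on the gene and library, would still be possible, and this limit covers counting error only. The other 12 were detected. Of these, 8 had at most 3 reads in every library, SERPINC1 (antithrombin) had between 1 and 5 reads and SERPING1 (C1 inhibitor) between 0 and 4.

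Only SERPINI1 and SERPINE3 had more than 3 reads in each library. SERPINI1 had 18, 19 and 19 reads in BrM3-shAKR1B10 and 8, 9 and 12 reads in BrM3-shNC, or 0.433 ± 0.0110 and 0.224 ± 0.0460 FPKM (SD, n = 3 each). The groups did not overlap, and the silenced mean was 1.93 times the control mean. No test is given, since its mean over all libraries reaches a filter of 0.3 FPKM only through the group where it is high. SERPINE3 had 12, 19 and 12 reads against 12, 5 and 12, or 0.260, 0.404 and 0.259 FPKM against 0.251, 0.113 and 0.252 FPKM. Its groups did not overlap only by a margin of less than 1 read, and it overlaps INTS6 on the opposite strand, which had up to 781 reads in a library.

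**Figure D1:**
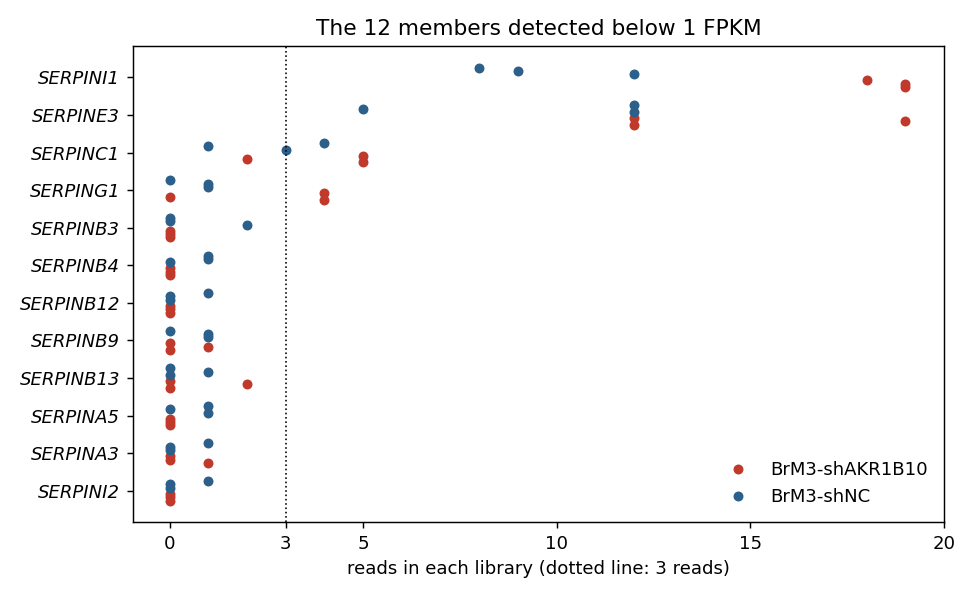
Reads in each library for the 12 members that were detected below a mean of 1 FPKM, with a dotted line at 3 reads. SERPINI1 reaches 18 to 19 reads in BrM3-shAKR1B10 and 8 to 12 in BrM3-shNC, and most other genes have between 0 and 5.

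The other genes of the pathway were taken from 4 lists. In the list of plasminogen receptors and urokinase clearance, 17 of 23 genes were tested, 2 were lower and 0 higher (11.8% called, beside 13.3% of all genes tested, median log2 fold change 0.02 beside -0.01). ITGA5, the integrin alpha 5 subunit that partners with the urokinase receptor on fibronectin, fell from 3.70 ± 0.312 to 1.69 ± 0.164 FPKM (SD, n = 3 each, log2 fold change -1.09, adjusted p = 0.00034 from limma). HMGB1, a chromatin protein that also binds plasminogen, fell from 59.0 ± 1.90 to 33.1 ± 1.36 FPKM (log2 fold change -0.83, limma adjusted p = 3.0e-05). The plasminogen receptors of the cell surface were not called. ENO1 (log2 fold change -0.32, adjusted p = 0.00064 from limma) and ANXA2 (-0.21, adjusted p = 0.0045) passed the adjusted p but stayed within the fold threshold. S100A10 (0.05, adjusted p = 0.20 from limma) and KRT8 (0.10, adjusted p = 0.24) did not pass, and PLGRKT was at 4.71 and 4.70 FPKM. LRP1, the receptor that clears complexes of urokinase with its inhibitors, was 4.45 ± 0.105 against 3.67 ± 0.180 FPKM (SD, n = 3 each, log2 fold change 0.27, adjusted p = 0.0086 from limma), within the fold threshold.

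In the list of proteases that serpins can inhibit or that act beside them, 23 of 40 genes were tested, and 3 were lower and 4 higher (30.4% called, beside 13.3% of all genes tested, median 0.15 beside -0.01). The lower genes were the cysteine protease CTSV (log2 fold change -0.89) and the kallikreins KLK6 (-0.82) and KLK7 (-0.53). KLK6, itself able to cleave plasminogen, was the most abundant protease of the list and fell from 385 ± 16.8 to 217.1 ± 6.54 FPKM (SD, n = 3 each, adjusted p = 3.3e-05 from limma). The higher genes were PCSK6 (0.71), the complement protease C1S (0.56), CTSH (0.52) and CTSL (0.51). With the fold threshold kept at 0.5, 4 of these 7 genes fell inside it in some fits. C1S did not pass with a pseudocount of 1 (0.46), nor did KLK7 (-0.45) and CTSL (0.48). KLK7 did not pass without BrM3-shAKR1B10 replicate 1 (-0.48) or BrM3-shNC replicate 2 (-0.43), CTSH without BrM3-shAKR1B10 replicate 1 (0.49) or BrM3-shNC replicate 1 (0.48), and CTSL without BrM3-shAKR1B10 replicate 2 (0.46) or BrM3-shNC replicate 1 (0.46). ST14 (matriptase), which activates urokinase on epithelial cells, was 40.9 ± 0.851 against 46.7 ± 1.41 FPKM (log2 fold change -0.19, adjusted p = 0.0053 from limma).

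Of 29 coagulation and kinin genes, 9 were tested and 1 was called (11.1%, beside 13.3% of all genes tested), with a list median of -0.12 beside -0.01. With so few genes, nothing particular to the 4 lists is read from these shares. F3, tissue factor, the cellular starter of coagulation, rose from 32.9 ± 2.08 to 52.2 ± 0.466 FPKM (SD, n = 3 each, log2 fold change 0.67, adjusted p = 0.00012 from limma). TFPI, the Kunitz inhibitor of the tissue factor pathway, was at 4.02 ± 0.311 against 4.37 ± 0.1004 FPKM (log2 fold change -0.12, adjusted p = 0.20 from limma), and its log2 fold change was -0.06 without BrM3-shAKR1B10 replicate 3. F2RL1, the receptor cleaved by trypsin-like proteases, differed by -0.30 on the log2 scale (limma adjusted p = 0.0021), within the fold threshold. Below the filter, and named after their values were seen, THBD (thrombomodulin) was at 1.22 ± 0.114 against 0.381 ± 0.127 FPKM and F2R (a thrombin receptor) at 0.151 ± 0.0709 against 0.754 ± 0.140 FPKM (SD, n = 3 each). No test is given for these 2 genes.

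Among 32 protease inhibitors outside the serpin family, 11 were tested, 2 were higher and 1 was lower (27.3% called, beside 13.3% of all genes tested, median 0.18 beside -0.01). PI3, or elafin, an elastase inhibitor of epithelia, rose from 10.5 ± 0.750 to 29.9 ± 1.46 FPKM (SD, n = 3 each). This change of 1.51 on the log2 scale (limma adjusted p = 2.1e-05) was larger in size than that of any tested serpin. CST6, an inhibitor of CTSV and CTSL, rose with a log2 fold change of 0.71, and WFDC2 fell with one of -0.69. SPINT1, which inhibits matriptase and the hepatocyte growth factor activator, was 49.98 ± 1.73 against 35.8 ± 2.39 FPKM (log2 fold change 0.48, adjusted p = 0.00075 from limma), just within the threshold. It passed with TPM (0.52), with quantile normalization (0.54), without BrM3-shAKR1B10 replicate 2 (0.50) and without BrM3-shNC replicate 3 (0.53), which made 3 higher genes in this list.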

How the data were processed

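RNA-seq of PC9-BrM3 cells was analysed for 3 BrM3-shAKR1B10 and 3 BrM3-shNC libraries, grouped by the sample titles. According to the supplementary methods and the submitters' processing notes, mRNA was enriched with poly-T beads, and the authors aligned clean paired-end reads with HISAT2 2.0.5, counted them per gene with featureCounts 1.5.0-p3 and deposited FPKM values per library, without pooling. The genome build is not given in the sources used here, and identifiers, positions and strands of all 58735 genes match GENCODE 29 (GRCh38). Multiplying FPKM by gene length and by a size fitted for each library, starting from its smallest step, gave whole reads for 100% of values (tolerance 0.05 reads). Replicate libraries differed beyond sampling noise (within groups, the chi-square statistic divided by the number of genes ranged from 2.45 to 5.42).

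Because the values were FPKM, log2(FPKM + 0.1) was tested with limma 3.58.1 in R 4.3.3 (eBayes with a trend) over genes with a mean of at least 1 FPKM, in place of the count-based DESeq2 of the authors, with their thresholds (adjusted p under 0.05, absolute log2 fold change above 0.5). The added 0.1 makes fold changes of low genes smaller. Limma was tested on simulated data. Alternatives were other pseudocounts, filters and thresholds, TPM, quantile and median-of-ratios scaling, voom on the recovered reads, the replicate block and leaving out each library. Deviations of same-numbered libraries had correlations from -0.0155 to 0.00388, and the replicate numbers were not treated as pairs. The genes and lists were chosen with earlier results of these data known. Among the tested members, 1 is counted but not reported here. The others are all described, with the called genes of each list (at most 5 per direction), and the other list genes were named after their values were seen. Tables were handled in Python 3.11.15.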

Additional observations from a re-analysis of the deposited data

How the results depend on the processing

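Under 13 other settings and 6 fits with a library left out, no log2 fold change of the 14 tested members or AKR1B10 changed sign. Over these genes and alternatives, 270 values stayed on the same side of the call, 3 gained it and 6 lost it. Of the gains, 2 were those of PLAU, with TPM and with quantile normalization. The losses were those of PLAUR described above and of SERPINH1, SERPINB7 and PLAUR at a fold threshold of 1. The scalings moved the median of all genes by at most 0.037.

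With a fold threshold of 1, 205 genes were lower and 168 higher, 0 members were called in either direction, the receptor list kept 1 lower gene, the protease list had 0 lower and 0 higher, the coagulation list 0 higher, and the other inhibitors 0 lower and 1 higher. With a mean of at least 5 FPKM, 532 genes were lower and 290 higher, 1 member was lower, the receptor list had 1 lower gene, the protease list 1 lower and 2 higher, and the other inhibitors 0 lower. A pseudocount of 1 left 497 genes higher, 1 member lower and 2 proteases higher. TPM gave 2 higher members and quantile normalization 3. The coagulation list had 1 lower gene (VKORC1) with a pseudocount of 0.01, with quantile normalization and with voom on recovered reads. Its counts also moved with a mean of at least 0.3 FPKM and with no filter, which admit F2R and THBD. No test is given for these 2 genes, and F2R reaches 0.3 FPKM only through the controls. The cause of these shifts beyond the changed threshold or set of genes was not tested.

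With each library left out in turn, between 940 and 977 genes were lower and between 649 and 765 higher, members lower numbered between 1 and 2, lower proteases between 2 and 4, higher proteases between 2 and 5, and lower coagulation genes between 0 and 2 (2, F12 and VKORC1, without BrM3-shNC replicate 1). The replicate block gave 967 lower and 719 higher genes and changed no call among the members or lists.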
